A study of Macaca mulatta with 25 samples.

Results

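Transcripts of 10 membrane carriers of glucose, amino acids, lactate and organic anions were followed through 25 RNA sequencing libraries of rhesus macaque blastocysts. The carrier subunit SLC3A2 is counted among the carriers here. The carriers were chosen by name, as the entries of the raw count table whose macaque Ensembl identifier carried the symbol SLC2A1, SLC2A3, SLC2A8, SLC3A2, SLC7A5, SLC7A11, SLC38A2, SLC1A5, SLC16A1 or SLCO1A2, which gave 10 of 35395 genes, and all 10 passed the filter on low counts. The mothers were females enrolled before puberty, at about 2.5 years of age, 10 to a treatment. The T mothers carried testosterone implants and ate standard chow (15% fat, 59% carbohydrate, 26% protein). The WSD mothers ate an obesogenic Western-style diet (36% fat, 46% carbohydrate, 18% protein), and the TWSD mothers had the testosterone implants together with that diet. The control (C) mothers ate the chow and carried cholesterol implants. After 5 to 6 years, 7 T, 6 WSD, 3 TWSD and 10 C females could still be hormonally stimulated, and endometriosis was the main reason that others could not. Eggs from all groups were fertilised in vitro with semen of 4 males and grown in the same medium for up to 8 days, so the embryos differed in their mothers' treatment and were not treated themselves. The table held 10 T libraries, 8 WSD libraries, 2 TWSD libraries (2 and 3) and 5 C libraries (1, 2, 8, 11 and 12). Their depth, as summed counts, was 14219054 to 26753850 (T), 15005205 to 35544542 (WSD), 20381869 to 26710010 (TWSD) and 15272016 to 27659266 (C).

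A blastocyst is a hollow ball with an outer epithelium, the trophectoderm, around a cavity and an inner cell mass. Early mammalian embryos draw mainly on pyruvate and lactate, and glucose uptake increases as the cavity forms, through facilitative glucose carriers of the GLUT family. Amino acids enter through exchangers and sodium-coupled carriers, and leucine uptake by the trophectoderm is known from mouse blastocysts to feed the growth regulator mTORC1. SLC3A2, the heavy chain of CD98, is not a carrier itself but brings light chains such as SLC7A5 and SLC7A11 to the cell surface.

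Each library was checked against marker genes, and 4 libraries stood apart. The 8 syncytiotrophoblast markers, genes of the fused outer layer of the placenta, summed to 3258 CPM (counts scaled to equal library size) in T 1, and among controls to 11050 CPM (C 8), 4010 CPM (C 11) and 8553 CPM (C 12), against 84.7 to 573 CPM in the other 21 libraries. Over those 4 libraries and the other 21, the 8 cumulus and granulosa cell markers summed to 110.3 to 1187 CPM against 35.4 to 102.6, the 6 matched blood cell markers to 4.03 to 287 against 0.228 to 19.5, and the 6 sperm markers to 0 to 3.45 against 0 to 0.801. The 6 matched epiblast markers, genes of the inner cell mass, summed to 1383 CPM in T 1 and to 409.6, 26.5 and 5.96 CPM in the controls 8, 11 and 12, against 350.4 to 1213 CPM in the other 21 libraries. The 8 primitive endoderm markers summed to 5038 CPM in T 1 and, in the same controls, to 1748, 19180 and 773 CPM, against 726 to 4664 CPM elsewhere. The 7 matched trophectoderm markers summed to 2839 to 10540 CPM in the 4 libraries, inside the 1673 to 18440 CPM of the others, although CDX2 alone was at 1.57 CPM in C 12. In libraries of whole blastocysts, fewer cells of a type and less RNA per cell cannot be told apart. TWSD 2 also differed from the rest, with 979 genes, 7.03% of the 13934 tested, below 0.1 of their next lowest library, against a median of 13 genes and at most 570 in the other 24 libraries. The labels do not say whether a library is 1 embryo or a pool, so SDs and n below refer to libraries. Each library's mother is not named either, but 10 T libraries from 7 females and 8 WSD libraries from 6 females must include libraries that share mothers, so the p-values below, which treat libraries as separate, are too small to that extent. All p-values come from edgeR's quasi-likelihood test over the 4 groups, adjusted by Benjamini-Hochberg over the 13934 genes, and levels are CPM after TMM scaling for library composition.

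SLCO1A2 was the single carrier of the 10 to pass the test, and it was higher in T libraries. In T against C, 1 carrier passed as higher and 0 as lower, where 4.11% of all tested genes passed, 0.337% as higher and 3.77% as lower. In WSD against C none of the 10 passed, where 4.07% of all genes did (0.466% higher, 3.6% lower), and 2 carriers had an unadjusted p under 0.05. In TWSD against C again none passed, where 1.2% of all genes did (0.861% higher, 0.337% lower), and 2 had an unadjusted p under 0.05. DESeq2 called 2 of the 10 in T, 2 in WSD and 1 in TWSD, where it called 7.91%, 8.5% and 14.3% of all genes. An unadjusted edgeR p under 0.05 was held by 18.3% of all genes in T, 18.3% in WSD and 22% in TWSD. The 3 comparisons share the 5 control libraries. The median log2 change of the 10 carriers was -0.09 in T, -0.15 in WSD and -0.13 in TWSD, beside -0.12, -0.12 and -0.38 over all genes tested. With library totals in place of TMM factors the median over all genes moved to 0.02 in T and -0.01 in WSD, so changes near 0 have no firm sign.

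**Figure D1:**
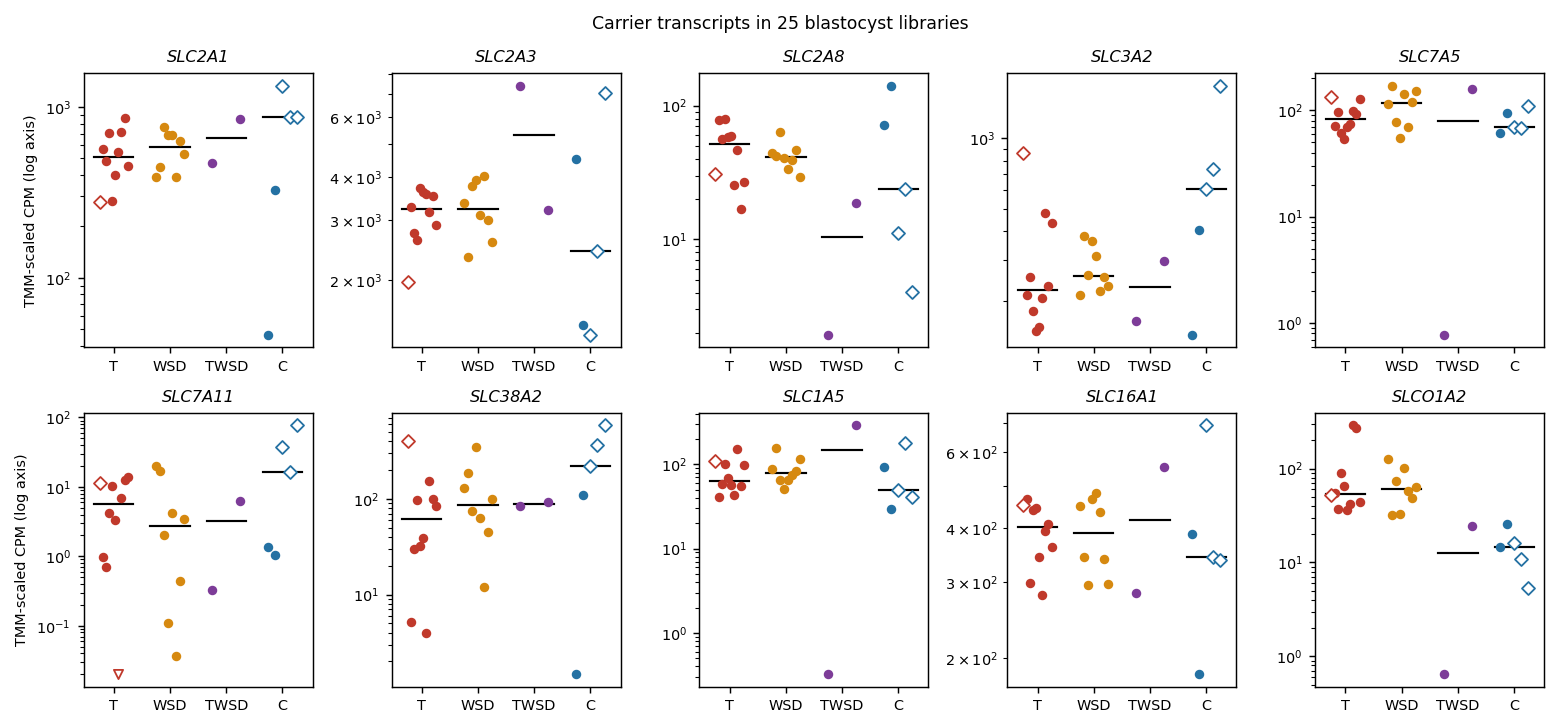
TMM-scaled CPM (log axis) of each of the 10 carriers in every library, by group; bars are group medians, open diamonds are T 1, C 8, C 11 and C 12, and an open triangle is a library with 0 counts. SLCO1A2 sat between 31.6 and 290.8 CPM in the 18 T and WSD libraries and at or below 25.7 CPM in the 5 controls, while TWSD 2 was near 0 for SLC7A5, SLC1A5 and SLCO1A2.

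SLCO1A2 (ENSMMUG00000008584), in humans the organic anion carrier OATP1A2 that moves bile acids, steroid sulfates and thyroid hormones, ran from 36.4 to 290.8 CPM in the 10 T libraries (median 53.4) and from 31.6 to 125 CPM in the 8 WSD libraries (median 60.1). The TWSD libraries were at 0.644 CPM (10 counts) and 24.7 CPM. The controls were at 14.7, 25.7, 16.3, 10.99 and 5.33 CPM in C 1, C 2, C 8, C 11 and C 12. Every T and WSD library lay above every control, and both TWSD libraries lay below all 18 of them. Among the tested genes, 0.0646% had all T and WSD libraries above all controls, 0.179% had all T libraries above, 0.459% had all WSD libraries above, and 1.45% had both TWSD libraries below all T and WSD libraries. The means were 98.3 ± 97.6 CPM in T (SD, n = 10), 66.9 ± 32.8 CPM in WSD (n = 8) and 14.6 ± 7.50 CPM in C (n = 5). T 9 and T 10, at 290.8 and 270.9 CPM, made the T mean higher than the WSD mean, while the WSD median was the higher one.

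In T, SLCO1A2 rose 6.74-fold, a log2 change of 2.75 ± 0.69 (SE), with an edgeR adjusted p of 0.0231. In WSD the log2 change was 2.20 ± 0.68, a fold of 4.59 that did not pass (edgeR adjusted p = 0.063), and in TWSD it was -0.20 ± 0.92 (edgeR adjusted p = 0.918). The WSD change did pass in 4 alternatives and did not in the other 29. T and WSD did not differ beyond their spread, with a log2 difference of 0.56 ± 0.52 (edgeR adjusted p = 1). The T call was lost without C 11 (edgeR adjusted p = 0.0513) or C 12 (0.119), with only T and C libraries in the fit (0.0506), and with limma voom and quality weights (1.95, adjusted p = 0.51). Leaving out T 1, C 8, C 11 and C 12 gave a log2 change of 2.40 ± 1.02 in T and 1.75 ± 0.98 in WSD, and neither passed (edgeR adjusted p = 0.966 and 0.755, over 2 controls).

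Among the 3 genes with a symbol whose levels ranked the 25 libraries most like SLCO1A2 were MAPKAPK5 and CDC25A. Spearman's rho over 25 libraries was 0.739 for the protein kinase MAPKAPK5 and 0.714 for CDC25A, a phosphatase that lets cells enter the next phase of division. Over the 21 libraries that did not stand apart, rho was 0.701 for MAPKAPK5 and 0.634 for CDC25A. These values are descriptions, since all points share their libraries and the genes were picked for likeness. CDC25A averaged 122 ± 56.3 CPM in T (SD, n = 10), 115 ± 29.1 CPM in WSD (n = 8) and 51.0 ± 19.2 CPM in C (n = 5), and was at 4.90 and 132.5 CPM in TWSD 2 and TWSD 3.

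The glucose carriers did not pass the test in any comparison. SLC2A3 (ENSMMUG00000046124), the high-affinity carrier GLUT3, ran from 1977 to 3721 CPM in T (median 3215) and from 2326 to 4031 CPM in WSD (median 3228). It was at 7404 and 3203 CPM in TWSD 2 and TWSD 3, and at 4511, 1480, 1379, 2426 and 7029 CPM in C 1, C 2, C 8, C 11 and C 12. TWSD 2 was the highest of all 25 libraries and C 8 the lowest, and the controls spanned the whole range of T and WSD. The log2 change was -0.12 ± 0.29 in T, -0.05 ± 0.30 in WSD and 0.66 ± 0.43 in TWSD (edgeR adjusted p = 0.894, 0.968 and 0.365). Without TWSD 2 the last value was -0.06. The near-identical copy SLC2A14 was listed apart, at 33.3 and 51.1 CPM in TWSD 2 and TWSD 3, and reads may have been split between the copies.

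SLC2A1 (ENSMMUG00000000373), the widely expressed carrier GLUT1, ran from 279 to 860 CPM in T (median 513) and from 388 to 762 CPM in WSD (median 582), with 473 and 846 CPM in TWSD 2 and TWSD 3. The controls were at 46.2, 327, 1334, 875 and 878 CPM in C 1, C 2, C 8, C 11 and C 12. C 1 was the lowest and C 8 the highest of all 25 libraries, and the 3 controls with syncytiotrophoblast markers were the 3 highest. T 1, which also held those markers, went the other way, at 279 CPM the lowest of the T and WSD libraries. For SLC2A1 the log2 change was -0.39 ± 0.41 in T, -0.29 ± 0.43 in WSD and -0.07 ± 0.63 in TWSD (edgeR adjusted p = 0.69, 0.797 and 0.959). In the fit without T 1, C 8, C 11 and C 12 the values were 1.60 ± 0.51, 1.61 ± 0.51 and 1.83 ± 0.59, now positive, with edgeR adjusted p of 0.613, 0.513 and 0.134 over 2 controls. Those controls were C 1, at 46.2 CPM the lowest of all 25 libraries, and C 2, at 327 CPM.

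SLC2A8 (ENSMMUG00000012167), the mainly intracellular carrier GLUT8 that has been studied in mouse blastocysts, ran from 17.0 to 78.9 CPM in T (median 51.3) and from 29.4 to 64.0 CPM in WSD (median 41.4). It was at 1.93 CPM (30 counts) in TWSD 2 and 18.9 CPM in TWSD 3. The controls were at 71.0, 141, 11.2, 24 and 4.08 CPM in C 1, C 2, C 8, C 11 and C 12, so the 3 controls with syncytiotrophoblast markers lay below C 1 and C 2, the opposite order to SLC2A1. For SLC2A8 the log2 change was -2.27 ± 0.96 in TWSD (edgeR adjusted p = 0.172; DESeq2 adjusted p = 0.0412), -0.07 ± 0.55 in T and -0.24 ± 0.57 in WSD (edgeR adjusted p = 0.969 and 0.888). The TWSD value was -3.32 ± 0.77 without T 1, C 8, C 11 and C 12 (edgeR adjusted p = 0.054). That fit kept C 1 and C 2, the highest controls. Without C 2 alone the TWSD value was -1.39 ± 0.83 (edgeR adjusted p = 0.298).

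The CD98 heavy chain SLC3A2 (ENSMMUG00000020354) had lower means in treated groups than in controls, without passing the test. It ran from 149 to 866 CPM in T (median 223) and from 213 to 382 CPM in WSD (median 258), and was at 164 and 297 CPM in TWSD 2 and TWSD 3. The controls were at 143.5, 403, 607, 740 and 1682 CPM in C 1, C 2, C 8, C 11 and C 12. T 1, C 8, C 11 and C 12 were the 4 highest of all 25 libraries, and C 1 was the lowest. The log2 change was -1.18 ± 0.41 in T, -1.35 ± 0.43 in WSD and -1.63 ± 0.70 in TWSD (edgeR adjusted p = 0.0997, 0.0701 and 0.179). DESeq2 called both single treatments (adjusted p = 0.0479 and 0.0228), and so did edgeR without C 1 (0.0194 and 0.0142) or without T 1 (0.0158 and 0.0396). When T 1, C 8, C 11 and C 12 were left out, it was -0.07 ± 0.40 in T, 0.05 ± 0.41 in WSD and -0.23 ± 0.52 in TWSD.

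SLC7A11 (ENSMMUG00000020317), the light chain xCT that exchanges cystine for glutamate and so feeds glutathione synthesis, varied more between libraries than 96.7% of all tested genes. It ran from 0 to 14.1 CPM in T (median 5.59) and from 0.0365 to 20.1 CPM in WSD (median 2.74). It was at 0.322 CPM (5 counts) and 6.18 CPM in TWSD 2 and TWSD 3, and at 1.35, 1.04, 38.0, 16.2 and 77.8 CPM in C 1, C 2, C 8, C 11 and C 12. The count of 0 was in T 8, where 3 counts, the limit that such a count allows, would be 0.178 CPM. C 12 and C 8 were the highest libraries, and the groups overlapped. The log2 change was -2.06 ± 1.10 in T, -2.18 ± 1.18 in WSD and -3.04 ± 2.11 in TWSD (edgeR adjusted p = 0.332, 0.338 and 0.392), and without T 1, C 8, C 11 and C 12 these turned to 2.34 ± 1.92, 2.34 ± 1.93 and 1.47 ± 2.11.

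SLC7A5 (ENSMMUG00000052851), the light chain LAT1 that carries leucine and other large neutral amino acids, ran from 54.2 to 134 CPM in T (median 83.3) and from 54.6 to 170 CPM in WSD (median 117). The TWSD libraries were at 0.773 CPM (12 counts) and 159 CPM, and the controls at 61.1, 94.4, 69.3, 68.6 and 110.7 CPM in C 1, C 2, C 8, C 11 and C 12. Unlike its heavy chain it did not separate the 4 libraries with syncytiotrophoblast markers, since C 8, C 11 and C 12 lay among the other libraries. For SLC7A5 the log2 change was 0.12 ± 0.51 in T, 0.48 ± 0.53 in WSD and -0.01 ± 0.77 in TWSD (edgeR adjusted p = 0.945, 0.714 and 0.995).

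SLC38A2 (ENSMMUG00000022359), the sodium-coupled carrier SNAT2 of small neutral amino acids, known from cultured cells to rise when amino acids run short, ran from 3.92 to 403.5 CPM in T (median 61.8) and from 12.1 to 351 CPM in WSD (median 87.0). It was at 84.7 and 91.7 CPM in TWSD 2 and TWSD 3, and at 1.47, 110, 218, 363 and 589 CPM in C 1, C 2, C 8, C 11 and C 12. C 12, T 1 and C 11 were the 3 highest libraries and C 1 the lowest. For SLC38A2 the log2 change was -1.43 ± 0.85 in T, -1.10 ± 0.90 in WSD and -1.54 ± 1.47 in TWSD (edgeR adjusted p = 0.395, 0.584 and 0.55). Without T 1, C 8, C 11 and C 12 the values turned to 0.15 ± 1.16, 1.11 ± 1.25 and 0.67 ± 1.47. The controls left in that fit were C 1, the lowest library at 1.47 CPM, and C 2, at 110 CPM.

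**Figure D2:**
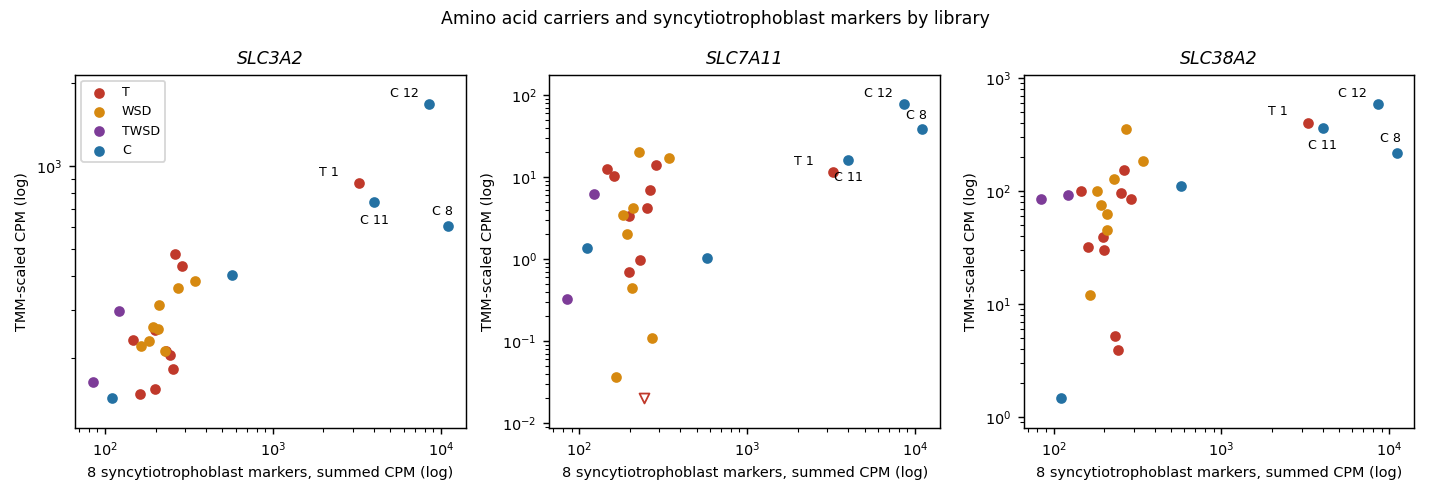
TMM-scaled CPM of SLC3A2, SLC7A11 and SLC38A2 (log axis) against the summed CPM of 8 syncytiotrophoblast markers (log axis), 1 point per library, coloured by group; an open triangle is a library with 0 counts. T 1, C 8, C 11 and C 12, at 3258 CPM of the markers or more, held the 4 highest values of SLC3A2, and C 12 was highest for all 3 carriers.

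SLC1A5 (ENSMMUG00000022163), the exchanger ASCT2 that takes up glutamine, ran from 40.8 to 151 CPM in T (median 63.6) and from 50.7 to 155 CPM in WSD (median 79.3). TWSD 2 held 0.322 CPM (5 counts) and TWSD 3 held 294 CPM, and the controls were at 92.9, 29.6, 49.1, 179 and 40.7 CPM in C 1, C 2, C 8, C 11 and C 12. The 2 TWSD libraries were thus the lowest and the highest of all 25. For SLC1A5 the log2 change was 0.00 ± 0.62 in T, 0.16 ± 0.65 in WSD and 0.91 ± 0.91 in TWSD (edgeR adjusted p = 0.998, 0.942 and 0.567). The TWSD value was 1.92 without TWSD 2 and -7.90 without TWSD 3.

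SLC16A1 (ENSMMUG00000006171), the lactate and pyruvate carrier MCT1, was the steadiest of the 10: only 3.41% of all tested genes varied less between libraries, with an SD of log2 CPM of 0.39 against a median of 1.22. It ran from 280.4 to 469 CPM in T (median 403) and from 295 to 483 CPM in WSD (median 390). It was at 283 and 555 CPM in TWSD 2 and TWSD 3, and at 387, 184, 694, 343 and 338 CPM in C 1, C 2, C 8, C 11 and C 12. Both the lowest and the highest library were controls. The log2 change was 0.00 ± 0.23 in T, 0.00 ± 0.24 in WSD and 0.11 ± 0.35 in TWSD (edgeR adjusted p = 0.997, 1 and 0.882). BSG, the chaperone that takes MCT1 to the cell surface, was at 489 and 1228 CPM in TWSD 2 and TWSD 3 and between 696 and 2413 CPM in the 23 other libraries.

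**Figure D3:**
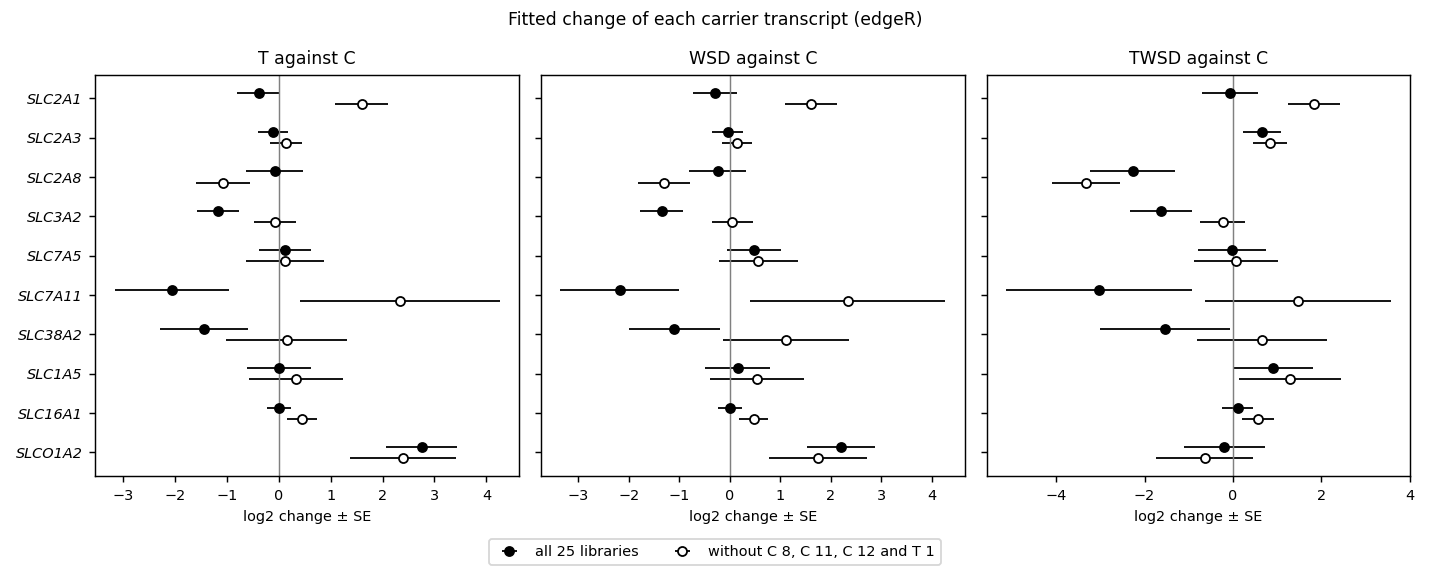
Fitted log2 change (± SE, edgeR) of each carrier in T, WSD and TWSD against C, with all 25 libraries (filled) and without T 1, C 8, C 11 and C 12 (open). SLCO1A2 stayed positive in T and WSD, at 2.40 ± 1.02 and 1.75 ± 0.98, but no longer passed in T, SLC3A2 moved to about 0, and SLC2A1, SLC7A11 and SLC38A2 changed sign in all 3 comparisons.

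The 2 TWSD libraries were unlike each other for several carriers. In TWSD 2, SLC7A5 and SLC1A5 were below 0.1 of the lowest of the other 24 libraries. SLC3A2, the heavy chain of SLC7A5, was at 164 CPM there, above C 1, T 6 and T 7. The lists described below held 80 tested sugar, amino acid, monocarboxylate and organic anion carriers, with chaperones such as EMB and BSG counted among them. Of these, 9 were that low in TWSD 2 (11.2%), beside 7.03% of all tested genes. They were SLC2A13, SLC1A5, SLC6A9, SLC7A5, SLC36A4, SLC38A7, SLC43A2, SLC16A13 and EMB, of which 6 were amino acid carriers (of 38) and 0 organic anion carriers (of 13). Without TWSD 3, which left TWSD 2 as the sole library of its group and assumed that it varied like the other groups, 4 of the 10 carriers passed as lower than controls, where 13.5% of all genes did. The log2 changes were -4.70 for SLC2A8, -6.70 for SLC7A5, -7.90 for SLC1A5 and -4.49 for SLCO1A2 (edgeR adjusted p = 0.0236, 1.9e-05, 0.000175 and 0.0306). Without TWSD 2, none of the 10 passed.

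**Figure D4:**
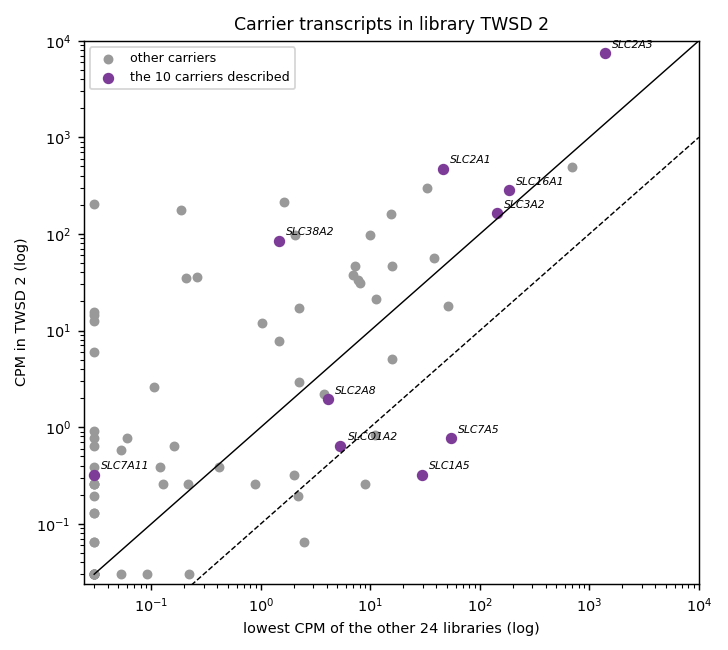
CPM in TWSD 2 against the lowest CPM of the other 24 libraries (both log axes) for 80 carriers and chaperones. Values at or under 0.03 are drawn at 0.03. The solid line is equality and the dashed line 0.1 of it. SLC7A5 and SLC1A5 lie under the dashed line, and SLC2A8 and SLCO1A2 between the lines. SLC2A1, SLC2A3, SLC7A11 and SLC38A2 lie above the solid line, and SLC3A2 and SLC16A1 lie close to it.

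Whether carriers that work together ranged together was asked for 6 pairs over the 21 libraries that did not stand apart. SLC1A5 and SLC7A5 gave r = 0.933 and rho = 0.542 (permutation test, two-sided, adjusted over 6 pairs, p = 0.00288 and 0.0373). Without TWSD 2 and TWSD 3 this r was 0.427, so it rested on those libraries, and without TWSD 2 alone the rho was 0.469 (permutation adjusted p = 0.116), no longer past the threshold. The CD98 pair SLC3A2 and SLC7A5 gave r = 0.421 and rho = 0.634 (permutation adjusted p = 0.108 and 0.0156), with r = 0.428 without the 2 libraries farthest from the median of SLC3A2. For SLC3A2 and SLC7A11, SLC7A5 and SLC7A11, SLC2A1 and SLC2A3, and SLC16A1 and BSG, r was 0.171, 0.364, -0.15 and -0.119 (permutation adjusted p = 0.551, 0.197, 0.551 and 0.595), and rho was 0.216, 0.487, -0.112 and -0.0896 (0.521, 0.054, 0.698 and 0.698). Libraries that share a mother are not independent points, so these p-values are too small as well.

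Between the single treatments, none of the 10 carriers passed in T against WSD, where 0.0% of all genes did by edgeR (237 with an unadjusted p under 0.05; 6 by DESeq2), and 0 of the 10 had an unadjusted p under 0.05. The log2 differences ran from -0.36 ± 0.44 for SLC7A5 to 0.56 ± 0.52 for SLCO1A2. The interaction, which asks whether the diet's effect differed with and without testosterone, called none of the 10 by edgeR (1 with an unadjusted p under 0.05; 1 by DESeq2, which called 2.83% of all genes), where 0.0718% of all genes passed (0.0431% higher, 0.0287% lower). Its value for SLCO1A2 was -5.15 ± 1.30 (edgeR adjusted p = 0.0918; DESeq2 adjusted p = 0.000283), with the gene high in T and WSD libraries and low in TWSD libraries. That value was -4.20 without TWSD 2 and -9.44 without TWSD 3 (edgeR adjusted p = 0.87 and 0.00125).

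Other carriers were read from 4 lists of related genes. Of the 22 listed sugar carriers 14 were tested, and SLC2A10, the carrier GLUT10, alone passed, as lower in TWSD (log2 change -6.72 ± 1.56, edgeR adjusted p = 0.0303), where 0.337% of all genes did. It was at 0.193 CPM (3 counts) and 0 CPM in TWSD 2 and TWSD 3, against 1.19 CPM or more in all T and WSD libraries and 2.47 to 30.9 CPM in C. That call was lost without the filter on low counts (edgeR adjusted p = 0.082), with the 2 groups alone (0.686) and with replicate number as a block (0.307). It was also lost without TWSD 2, without T 1, C 8, C 11 and C 12 (log2 change -5.09, edgeR adjusted p = 0.0844) and with voom (voom adjusted p = 0.969). None passed in T or WSD, and the list's median log2 change was -0.63 in T, -0.27 in WSD and -0.43 in TWSD. Of 20 listed monocarboxylate carriers and chaperones 15 were tested and none passed (edgeR), 4 having an unadjusted p under 0.05 in T, 3 in WSD and 3 in TWSD, beside 18.3%, 18.3% and 22% of all genes; their median log2 change was -0.76 in T, -0.62 in WSD and -1.20 in TWSD. Of 24 listed organic anion carriers 13 were tested. SLCO1A2 was the 1 that rose in T, and SLCO4A1, a thyroid hormone carrier in humans, fell in T (-7.00 ± 1.71, edgeR adjusted p = 0.0206). SLCO4A1 was at most 1.16 CPM in T and reached 63.2 CPM in C 8, where C 11 held 25.7 CPM, C 12 held 3.92 CPM, and C 1 and C 2 held 0.118 and 0 CPM. Its log2 change without T 1, C 8, C 11 and C 12 was 1.32 ± 2.68. Over the 13 organic anion carriers the median log2 change was 0.27 in T, 0.26 in WSD and -1.71 in TWSD.

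Of 50 listed amino acid carriers 38 were tested, and SLC7A2 and SLC38A3 passed as lower in T and in WSD, and SLC7A2 in TWSD. Of all genes 3.77%, 3.6% and 0.337% passed as lower, so 2 of 38 is close to that share in T and WSD. SLC7A2, a carrier of arginine and other cationic amino acids, was at 5.03 and 15.6 CPM in TWSD 2 and TWSD 3. It ran from 32.6 to 368 CPM in T and from 29.2 to 105.7 CPM in WSD, and was at 131.5, 33.0, 1384, 279 and 465 CPM in C 1, C 2, C 8, C 11 and C 12. Both TWSD libraries were below all others. As to all tested genes, 1.45% were placed so against T and WSD, and 6.74% against C. The log2 change was -2.57 ± 0.60 in T, -2.70 ± 0.64 in WSD and -5.47 ± 1.32 in TWSD (edgeR adjusted p = 0.0157, 0.0183 and 0.0353). Without T 1, C 8, C 11 and C 12 it was -0.85 ± 0.42, -0.20 ± 0.44 and -2.96 ± 0.62 (0.966, 0.965 and 0.0422), so the TWSD call alone was kept there. Without TWSD 2 the TWSD value was -4.87 (edgeR adjusted p = 0.636), and without C 8 the T and WSD values were -1.60 and -1.72 (0.105 and 0.0939). The TWSD call was also lost with library totals only (edgeR adjusted p = 0.0538) and without the filter on low counts (0.114). It was lost too with the 2 groups alone (0.686), with replicate number as a block (0.307) and with limma voom and quality weights (0.969).

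SLC38A3, the glutamine carrier SNAT3, had at most 8.67 CPM in T and 16.3 CPM in WSD and was at 5.58, 1.82, 152, 101 and 173 CPM in C 1, C 2, C 8, C 11 and C 12. It fell by 4.84 (± 1.05) in T and by 3.78 (± 1.10) in WSD on the log2 scale (edgeR adjusted p = 0.0114 and 0.0494). These were -0.29 and 0.78 without T 1, C 8, C 11 and C 12. Over all alternatives, the SLC38A3 call in T was kept in 29 and lost in 4. The call in WSD was kept in 7, lost in 25 and changed sign in 1. Over the 38 amino acid carriers the median log2 change was -0.40 in T, -0.55 in WSD and -1.13 in TWSD.

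Genes listed for the amino acid response, through which cells short of amino acids raise carriers such as SLC3A2, SLC7A11 and SLC38A2, passed as lower in part. The list is wider than that response, since members such as EIF2AK3 and PPP1R15A also belong to responses to other stresses. Whether amino acids ran short was not tested. Of 29 tested, 8 fell in T and 9 in WSD, beside 3.77% and 3.6% of all genes, and 21 and 20 did not pass. None passed in TWSD, where 12 had an unadjusted p under 0.05, beside 22% of all genes. The 8 in both were ATF3, DDIT3, TRIB3, CEBPB, CEBPG, EIF2AK3, PPP1R15A and AARS1, and the ninth was ATF4, the transcription factor at the head of this response (log2 change -1.42 ± 0.40 in WSD, edgeR adjusted p = 0.0425). ATF4 was at 106 to 242 CPM in WSD and at 227, 148, 194, 413 and 1570 CPM in C 1, C 2, C 8, C 11 and C 12. AARS1, a tRNA synthetase, was at 145 to 475 CPM in T and 276 to 486.5 CPM in WSD, against 5345 CPM in C 12 and 250.0 to 560.5 CPM in the other controls. Without C 12 the values were -0.36 for ATF4 in WSD, and -0.09 in T and 0.13 in WSD for AARS1, none past the threshold. Over all alternatives, the ATF4 call in WSD was kept in 14, lost in 18 and changed sign in 1. The AARS1 call in WSD was kept in 12, lost in 17 and changed sign in 3. In T the AARS1 call was kept in 26, lost in 5 and changed sign in 1. With T 1, C 8, C 11 and C 12 left out, none of the 9 genes passed in T or WSD (edgeR). ATF3, DDIT3, TRIB3, CEBPG, PPP1R15A and AARS1 then turned positive in T (0.20 to 0.77), and ATF4, ATF3, TRIB3, EIF2AK3 and AARS1 in WSD (0.045 to 0.89). The median log2 change of the 29 genes was -1.23 in T, -0.61 in WSD and -1.34 in TWSD. In the interaction 2 of the 29 passed as higher, where 0.0431% of all genes did. They were DDIT3 (7.20 ± 1.34, edgeR adjusted p = 0.034) and EIF2AK3 (4.64 ± 0.89, 0.0371). Neither passed without TWSD 2 (edgeR adjusted p = 0.35 and 0.698) or without C 12 (0.147 and 0.104). Without T 1, C 8, C 11 and C 12 the values were 0.61 and 1.30 (0.734 and 0.374). Over all alternatives, the DDIT3 call was kept in 10 and lost in 22, and the EIF2AK3 call was kept in 8 and lost in 24. Both calls were lost with library totals only, without the filter on low counts, with replicate number as a block and with voom.

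Of 30 tested regulators of carrier traffic and mTORC1, 3 fell in T and 2 in WSD, beside 3.77% and 3.6% of all genes, and none passed in TWSD (edgeR), where 5 had an unadjusted p under 0.05, beside 22% of all genes. NEDD4L, a ubiquitin ligase that takes carriers off the cell surface, fell by 1.73 (± 0.42) in T and by 1.67 (± 0.44) in WSD on the log2 scale (edgeR adjusted p = 0.0194 and 0.0318). RRAGC, a GTPase that passes amino acid supply on to mTORC1, fell by 2.53 (± 0.54) in T and by 3.07 (± 0.59) in WSD (edgeR adjusted p = 0.0109 and 0.00693), and RRAGB of the same family fell by 3.66 (± 0.94) in T (edgeR adjusted p = 0.027). C 12 was the highest library for each, with 563 CPM of NEDD4L, 424 CPM of RRAGC and 172.5 CPM of RRAGB. Without C 12 the log2 changes were -0.89 and -0.84 for NEDD4L, -0.25 and -0.78 for RRAGC in T and WSD, and -0.52 for RRAGB in T, none past the threshold.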

How the data were processed

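Raw read counts per gene were deposited by the authors in 1 table, whole numbers with no normalization, for blastocyst libraries of 4 maternal treatments. FastQC 0.11.8, Trimmomatic 0.39, STAR 2.7.0 and the build Mmul_10 are named in the submitters' processing notes. Neither the counter, the annotation release nor the strand setting is given in the sources used here, so reads of overlapping, antisense or near-identical genes may be shared. A symbol table named 24173 of the 35395 gene identifiers. Levels were not compared between genes, since no transcript lengths were used, and no sequences are shown.

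A gene was tested if 5 or more libraries held 1 CPM or more of it (13934 genes, 12605 with a symbol). edgeR 4.0.16 (R 4.3.3) was run on the counts of the 25 libraries together, with TMM factors and group as the only term. The quasi-likelihood F-test with robust dispersions was used, with Benjamini-Hochberg adjustment over all genes tested and a threshold of 0.05, and the common biological coefficient of variation came to 0.9. Standard errors were derived from the log2 change and its F statistic. Correlations used log2 CPM with a prior count of 2, tested by 100000 permutations (SciPy 1.17.1). Alternatives used DESeq2 1.42.0 and limma 3.58.1. The code was tested on simulated data with known changes. In the figures and the text a level of 0 is a count of 0, and intervals or limits from counts cover counting error only.

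Total counts ran from 14219054 to 35544542. The 10 carriers, the lists and the markers were chosen with earlier results of these data known. Genes outside the 10 are named where they passed the threshold in a list, and, for SLCO1A2, as the 3 with the highest Spearman rho over 25 libraries, of which 1 is not reported here; SLC2A14, BSG and the carriers very low in TWSD 2 were named after their values were seen.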

Additional observations from a re-analysis of the deposited data

Results flagged for a closer look

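SLC38A2 in C 1 lay far from the other 4 controls. Its log2 CPM was 0.64 (1.47 CPM), against 6.78 in the nearest control, a gap of 0.717 of the group's whole range, where 0.71 is Dixon's 95% critical value for 5 samples. The 10 carriers in T, WSD and C gave 30 such groups, and this was the 1 that passed. Chance flags about 1 in 20 groups.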

How the results depend on the processing

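SLCO1A2 was higher in T than in C under every alternative run, with log2 changes from 1.39 to 3.06, and passed the threshold in all but voom, the fit of T and C alone, the replicate block, the fit without 4 libraries, and those without C 11 or C 12. Genes called in T, WSD, TWSD and the interaction were 240, 321, 96 and 5 with library totals only, 1102, 1185, 1995 and 395 with DESeq2 (6 in T against WSD), 0 in each with voom and 0 in each with the replicate block. With only the groups compared they were 114, 30 and 0, without a filter 92 in TWSD and 4 in the interaction, and without T 1, C 8, C 11 and C 12 they were 0, 1, 32 and 4. Carriers called were 2, 2, 1 and 1 with DESeq2, and 0 in T with voom, the groups compared, the block, or without those 4 libraries. Leaving out single libraries gave 64 to 1249 genes in T, 57 to 1103 in WSD (both lowest without C 12), 0 to 2784 in TWSD (0 without TWSD 2, 2784 without TWSD 3), 0 to 2235 in the interaction and 0 to 0 in T against WSD, and 0 to 2, 0 to 2, 0 to 4, 0 to 4 and 0 to 0 carriers. Without T 1, C 8, C 11 and C 12 these changed sign: in T, SLC7A11 2.34, SLC38A2 0.15, SLCO4A1 1.32, ATF3 0.77, DDIT3 0.49, TRIB3 0.20, CEBPG 0.37, PPP1R15A 0.35 and AARS1 0.40. In WSD they were SLC3A2 0.051, SLC7A11 2.34, SLC38A2 1.11, SLC38A3 0.78, ATF4 0.045, ATF3 0.89, TRIB3 0.12, EIF2AK3 0.24 and AARS1 0.53, in TWSD SLC7A11 1.47 and SLC38A2 0.67, and in the interaction SLC3A2 -0.21. With voom AARS1 was 0.22 in WSD, SLC38A2 0.25 and SLC1A5 -0.52 in TWSD, and SLC2A3 -0.15 in the interaction. With the replicate block SLC1A5 was -1.11 in TWSD. Over single libraries left out, AARS1 in WSD ran from -2.15 to 0.13, SLC2A3 in TWSD from -0.06 to 1.14, and SLC1A5 from -7.90 to 1.92 in TWSD and from -8.06 to 1.74 in the interaction. Another 126 of 2656 values changed sign from a value smaller than its error. The r of SLC3A2 and SLC7A11 was 0.528 over 25 libraries. Without the 2 farthest libraries r was 0.206 for SLC2A1 and SLC2A3, 0.427 for SLC1A5 and SLC7A5 and 0.235 for SLC16A1 and BSG, which with library totals was 0.147. Without TWSD 2, chosen after seeing the data, r of SLC1A5 and SLC7A5 was 0.532 (permutation adjusted p = 0.052) and r of the other pairs ran from -0.432 to 0.532. Libraries of the same replicate number were not clearly alike once group means were removed. Of 16 same-numbered pairs 3 correlated above 0.1 (r from -0.376 to 0.222), and 1 of 23 libraries correlated best with its own number. After that step the 2 TWSD libraries mirror each other, so the check cannot exclude that the numbers mark something shared. The cause of these differences was not tested. Low counts limit SLC7A11, SLC2A10 and SLCO4A1, and 2 TWSD libraries and 5 controls limit every comparison that uses them.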
